A study of Homo sapiens with 6 samples.

Results

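C-to-U editing of the proteasome subunit and assembly genes was described in long-read RBFOX2-INSCRIBE of HEK293T cells and its controls. The members were the protein-coding genes of GENCODE release 44 whose symbols begin with PSMA, PSMB, PSMC, PSMD, PSME, PSMF or PSMG, taken by symbol and not by any measured value. Of 50 such genes, 40 had at least 1 edited position listed in at least 1 library, among 7684 genes in all. They were represented by 52 of 9831 isoforms (48 coding, 3 with a retained intron and 1 whose coding sequence is not defined) and by 4140 of 837533 listed pairs of isoform and position over the 6 libraries. The other 10 genes, with no listed position here, were PSMA8, PSMB8, PSMB9, PSMB10, PSMB11, PSMC2, PSMD1, PSMD5, PSMD8 and PSMG4. The prefix also took in PSMC3IP, a recombination factor, and PSME3IP1, a partner of PSME3, which are not proteasome subunits. Both were counted as members, and PSME3IP1 was recognised only once the values had been seen.

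INSCRIBE reads where an RNA-binding protein sits by editing the RNA around it. In RBFOX2-INSCRIBE, HEK293T cells, a human embryonic kidney line, were fixed with methanol on slides, a rabbit antibody against RBFOX2 was bound, and a purified fusion of the cytosine deaminase APOBEC1 to a nanobody against rabbit IgG (Apo1-Nb) was added and left to edit overnight at 37 °C. The enzyme-only control received Apo1-Nb and no RBFOX2 antibody, and the buffer-only control received neither. All 3 groups were thus fixed, unmodified cells of the same line (named HEK293XT in one label and HEK293T in another), with 2 PacBio libraries each. The libraries are named as their titles number them: RBFOX2-INSCRIBE replicates 1 and 2, enzyme-only replicates 2 and 3, and buffer-only replicates 1 and 2. Another label numbers the enzyme-only libraries 1 and 2.

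The proteasome degrades ubiquitin-tagged proteins in nearly every cell. Its core particle (20S) is a barrel of stacked rings: the alpha subunits (PSMA genes) form the outer rings that gate the entry, and the beta subunits (PSMB genes) form the inner rings that hold the protease sites. The regulatory particle (19S) caps the barrel. Its base unfolds substrates with a ring of ATPases (PSMC genes) and its lid removes ubiquitin (PSMD genes), while other PSMD and PSMG products are assembly chaperones, PSME products are alternative activators and PSMF1 is an inhibitor of the core. Cells make these subunits from many unlinked genes, mostly with compact mRNAs, and in amounts that are kept in step. RBFOX2 is a splicing factor that binds UGCAUG in introns and 3′ UTRs, and proteasome mRNAs are not among its textbook targets.

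Edited Cs are distinct exonic cytosines listed as edited on the strand of the gene, and editsC is their number divided by all Cs of the exons of the listed isoforms. The fractions are used here without read numbers, and the read depth behind each value was not worked out. A gene can have few edited Cs because its mRNA was read few times. Over all genes, the libraries held 200663 and 205830 edited Cs with RBFOX2-INSCRIBE, 86019 and 153740 in enzyme-only replicates 2 and 3, and 72723 and 71421 in the buffer-only control. Enzyme-only replicate 2 thus stood apart from replicate 3, and the main comparisons that rest on it are given with and without it. Of the 8 genes taken as markers of HEK293 cells, 5 held edited Cs (NEFL, NEFM, INA, KRT18 and VIM), and KRT8, PAX2 and LHX1 held none. The 4 markers of other cells (PTPRC, CD3E, ALB and GFAP) held none in any library.

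The number of edited Cs of the proteasome mRNAs differed little between the antibody and the enzyme alone, and with both it was above the buffer. The members held 926 and 744 edited Cs in the RBFOX2-INSCRIBE libraries, 767 and 750 in enzyme-only replicates 2 and 3, and 398 and 402 in the buffer-only libraries. The RBFOX2-INSCRIBE and enzyme-only ranges overlapped, and both lay above the buffer-only range. The means were 835 ± 129 with RBFOX2-INSCRIBE, 758.5 ± 12.02 with enzyme alone and 400 ± 2.83 with buffer (SD, n = 2). The ratio of RBFOX2-INSCRIBE to enzyme-only means was 1.101 for the members and 1.70 for all genes. Against enzyme-only replicate 2 these ratios were 1.09 and 2.36, and against replicate 3 they were 1.11 and 1.32. Against buffer the ratio was 2.09 for the members and 2.82 for all genes. The enzyme-only mean was 1.90 times the buffer-only mean for the members and 1.66 times for all genes. As a share of all edited Cs of a library, the members held 0.461% and 0.361% with RBFOX2-INSCRIBE, 0.892% and 0.488% in enzyme-only replicates 2 and 3, and 0.547% and 0.563% with buffer. Both RBFOX2-INSCRIBE shares were thus below the 4 control shares. In bulk RNA, fewer cells that carry an mRNA and less of it per cell cannot be told apart.

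The plot of edited Cs by gene shows how uneven the members were. The 12 members with the most edited Cs over the 6 libraries (PSME3, PSMD12, PSMD11, PSMA4, PSMD14, PSMD3, PSMA1, PSMD2, PSMD10, PSME4, PSMC1 and PSMD4) held between 54.0% and 74.6% of the members' edited Cs in a library. At the other end, PSME1 and PSME2, the subunits of the cytoplasmic activator, had 1 and 2 edited Cs in enzyme-only replicate 2 and none elsewhere. PSMC3IP had 6 in RBFOX2-INSCRIBE replicate 1, 4 in enzyme-only replicate 2 and none elsewhere.

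**Figure D1:**
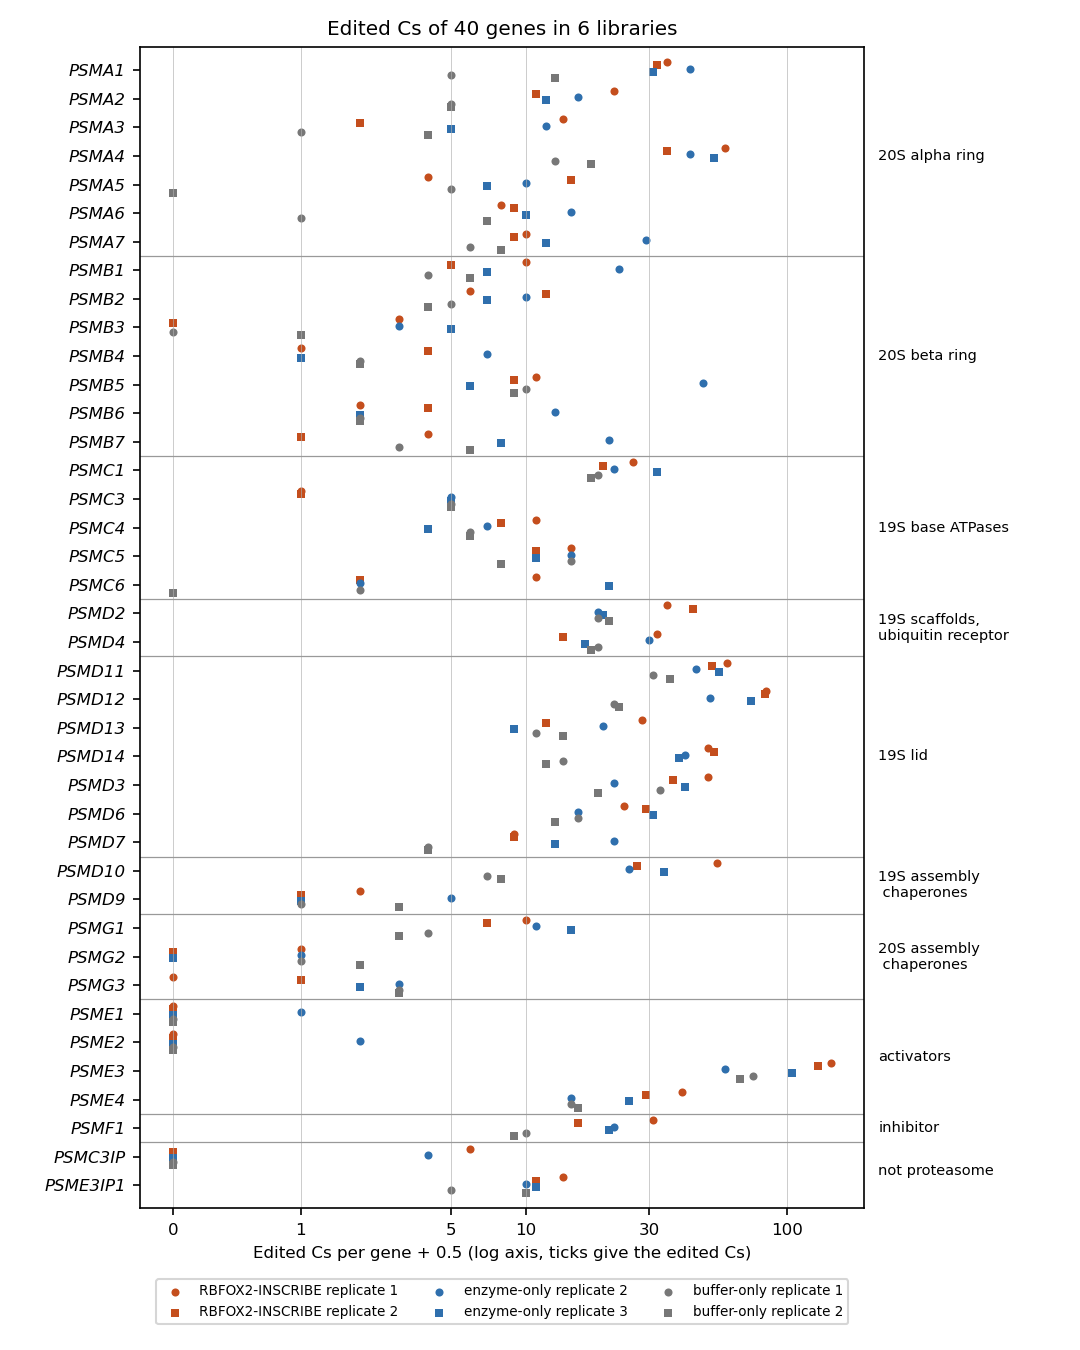
Edited Cs of each of the 40 genes (rows, grouped by role) in each of the 6 libraries (color gives the group, circle or square the replicate), on a log axis after adding 0.5. PSME3 lies farthest right in every library, and the beta ring genes PSMB5 and PSMB7 show enzyme-only replicate 2 (blue circle) apart from the other libraries.

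The lid of the regulatory particle, which holds the deubiquitinase, had the highest sum of edited Cs of any group in every library. Its 7 listed genes summed to 303 and 274 with RBFOX2-INSCRIBE, 217 and 261 in enzyme-only replicates 2 and 3, and 131 and 121 with buffer. Both RBFOX2-INSCRIBE libraries were above all 4 controls, as were their totals over all genes. The ratio of RBFOX2-INSCRIBE to enzyme-only means was 1.21 for the lid and 1.70 for all genes. PSMD12, a lid scaffold subunit, had 83 and 82 edited Cs with RBFOX2-INSCRIBE, 51 and 73 with enzyme alone and 22 and 23 with buffer. The 3 groups of PSMD12 did not overlap, and the replicates of the antibody and buffer groups lay within 1 edited C of each other. PSMD14, the lid deubiquitinase, had 50 and 53, 41 and 39, and 14 and 12 edited Cs in the same order of libraries. PSMD14 likewise had 3 separate groups. PSMD11, whose level is known to limit assembly of the complete proteasome, had 59 and 52 with RBFOX2-INSCRIBE, 45 and 55 with enzyme alone and 31 and 36 with buffer, so that the first 2 groups overlapped. PSMD3, another lid scaffold, had 50 and 37, 22 and 41, and 33 and 19 edited Cs. Only its RBFOX2-INSCRIBE and buffer-only groups were apart. PSMD7, the inactive partner of PSMD14, had 9 and 9 with RBFOX2-INSCRIBE, 22 and 13 with enzyme alone and 4 and 4 with buffer, so that both RBFOX2-INSCRIBE libraries lay below the enzyme-only and above the buffer-only libraries. PSMD6 had 24 and 29, 16 and 31, and 16 and 13 edited Cs, and PSMD13 had 28 and 12, 20 and 9, and 11 and 14. In PSMD6 and PSMD13 the RBFOX2-INSCRIBE and enzyme-only groups overlapped.

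In the base, the ATPases gave no separation of the antibody from the enzyme. The 5 listed PSMC subunits summed to 64 and 42 edited Cs with RBFOX2-INSCRIBE, 51 and 73 with enzyme alone and 47 and 37 with buffer. PSMC1 had 26 and 20, 22 and 32, and 19 and 18. PSMC4 had 11 and 8, 7 and 4, and 6 and 6, and was the ATPase whose RBFOX2-INSCRIBE libraries lay above all controls. PSMC3, singled out after its values were seen, had 1 and 1 with RBFOX2-INSCRIBE and 5 in each of the 4 control libraries, too few for the test against either control. PSMD2, the base scaffold that docks ubiquitin shuttles, had 35 and 44 with RBFOX2-INSCRIBE, 19 and 20 with enzyme alone and 19 and 21 with buffer. The enzyme-only and buffer-only groups of PSMD2 were alike, and both RBFOX2-INSCRIBE libraries were above them. PSMD4, a ubiquitin receptor, had 32 and 14, 30 and 17, and 19 and 18, with no separation.

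In the core particle, the alpha ring summed to 151 and 113 edited Cs with RBFOX2-INSCRIBE, 168 and 130 with enzyme alone and 36 and 55 with buffer. The enzyme groups, with or without antibody, were above buffer and overlapped each other. PSMA1 had 35 and 32, 43 and 31, and 5 and 13 edited Cs. PSMA4 had 58 and 35, 43 and 53, and 13 and 18. In both genes only the buffer-only group stood apart. PSMA7 had 10 and 9 with RBFOX2-INSCRIBE, 29 and 12 with enzyme alone and 6 and 8 with buffer, again with RBFOX2-INSCRIBE between the controls. The beta ring summed to 37 and 35 with RBFOX2-INSCRIBE, 125 and 36 in enzyme-only replicates 2 and 3, and 26 and 30 with buffer. Its ratio of RBFOX2-INSCRIBE to enzyme-only was 0.288 with replicate 2 and 1.00 with replicate 3. PSMB5, the chymotrypsin-like protease and also singled out after its values were seen, had 48 edited Cs in enzyme-only replicate 2 and 11, 9, 6, 10 and 9 in the other libraries. PSMB7, the trypsin-like protease, had 4 and 1, 21 and 8, and 3 and 6, and PSMB1 had 10 and 5, 23 and 7, and 4 and 6. Of the 36 members with an edited C in enzyme-only replicate 3, 5 had at least 3 times as many in replicate 2 (13.9%), against 4.87% of all 6513 such genes.

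Among activators and chaperones, PSME3, the subunit of the nuclear activator, had the most edited Cs of any member. It had 146 and 130 with RBFOX2-INSCRIBE, 58 and 104 with enzyme alone and 74 and 66 with buffer. Both RBFOX2-INSCRIBE libraries were above all controls, while the enzyme-only and buffer-only groups overlapped. PSME4, a large single-chain activator, had 40 and 29, 15 and 25, and 15 and 16, with the same order. PSMD10, a chaperone of the base also known as gankyrin, had 54 and 27 with RBFOX2-INSCRIBE, 25 and 34 with enzyme alone and 7 and 8 with buffer. Its RBFOX2-INSCRIBE and enzyme-only groups overlapped, and both were above buffer. PSMG1, a chaperone of the core, had 10 and 7, 11 and 15, and 4 and 3. The inhibitor PSMF1 had 31 and 16, 22 and 21, and 10 and 9. Between groups, the ratio of RBFOX2-INSCRIBE to enzyme-only means ran from 0.447 for the beta ring to 1.68 for the activators. This order rests in part on enzyme-only replicate 2. Against replicate 3 alone, the ratio was 1.00 for the beta ring and 1.34 for the activators, the lowest was 0.559 for the chaperones of the core and the highest 1.69 for the scaffold and receptor pair.

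**Figure D2:**
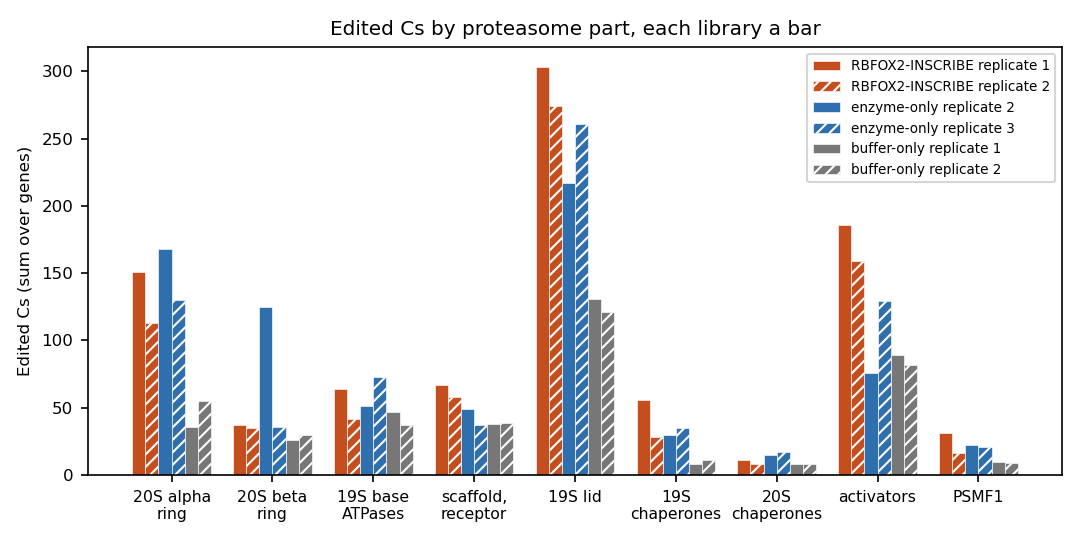
Edited Cs summed over the listed genes of each proteasome part, 1 bar per library (color gives the group, hatching the second library of each group), from 0. The lid and the activators are highest with RBFOX2-INSCRIBE, and the beta ring reaches 125 in enzyme-only replicate 2 against 26 to 37 in the other libraries.

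The first comparison asked whether the RBFOX2 antibody raised editing of proteasome mRNAs over the enzyme alone. No member passed the test. Of 31 members averaging 5 or more edited Cs over the 4 libraries, 0 were called at an adjusted p of 0.05 (limma on log2 editsC, Benjamini-Hochberg over all 5088 genes tested), and 0.118% of all genes were called, 6 in all and all higher. At an unadjusted p of 0.05, 1 member (PSMB7) and 862 of all genes passed (16.9%). The median log2 difference of the tested members was 0.00, and that of all genes was 0.85. Of the 31 members, 15 had a difference above 0, against 85.5% of all genes. Both RBFOX2-INSCRIBE libraries were above both enzyme-only libraries in 6 members, where 51.8% of all genes showed this order, and below both in 5 members, where 3.56% of all genes did. The highest log2 differences were 0.99 for PSMD2 (SE 0.67, adjusted p = 0.388), 0.82 for PSME3 (SE 0.59, adjusted p = 0.408) and 0.80 for PSME4 (SE 0.74, adjusted p = 0.508). PSMC4, PSMD3 and PSMD13 followed with 0.77, 0.51 and 0.44. The lowest were -2.38 for PSMB7 (SE 0.72, adjusted p = 0.127), -0.94 for PSMA7 (SE 0.65, adjusted p = 0.391), -0.88 for PSMD7 (SE 0.67, adjusted p = 0.436) and -0.80 for PSMB1.

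Each enzyme-only library was also left out. Without replicate 2, 29 members were tested. The member median was then 0.16 and that of all genes 0.35, and 21 of the 29 members and 71.5% of all genes were above 0. PSMD2, PSMC4 and PSMD13 had 0.96, 1.14 and 0.99, PSME3 and PSME4 had 0.40 and 0.44, and PSMD3 had 0.07. PSMD7 had -0.51, PSMA7 -0.32 and PSMB1 0.019, and PSMB7 had too few edited Cs for the test. Without replicate 3 the medians were -0.04 and 1.30. In that fit 15 of 31 members were above 0, against 86.7% of all genes. PSME3 had 1.24, PSMB5 -2.21 and PSMA7 -1.56. With 1 enzyme-only library left, the spread came from the RBFOX2-INSCRIBE pair and the lone library was assumed to vary like it. Calls of these fits are therefore not set out here, and their range is given with the alternatives below. When the libraries were scaled to the same total of edited Cs, the median of all genes was 0.02 and that of the members -0.79. Then 2 of 31 members were above 0, against 51.4% of all genes. An unadjusted limma p under 0.05 was found in 5 members, 0 of them higher. Of all 5117 genes 395 had such a p, 165 of them higher.

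**Figure D3:**
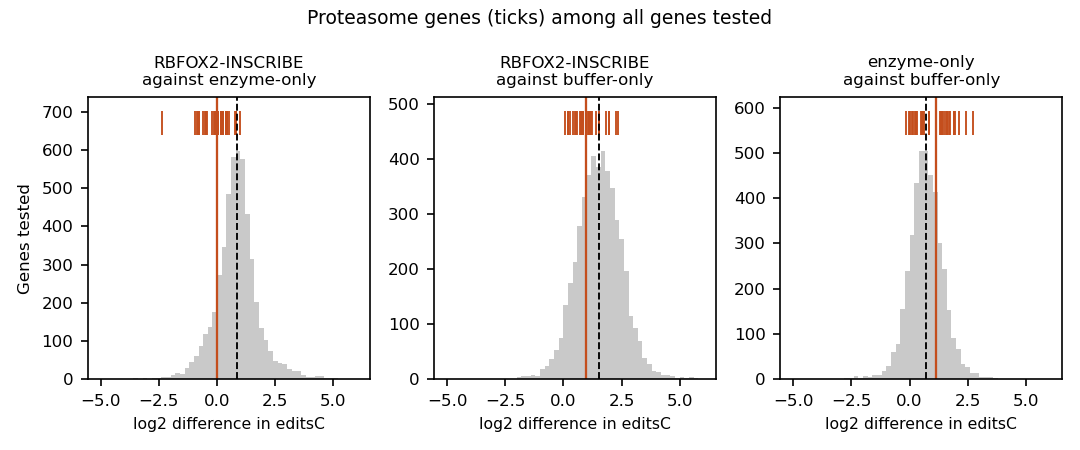
Histograms of the log2 difference in editsC of all genes tested in each of the 3 comparisons (grey; x axis log2, y axis number of genes), with each tested proteasome gene as a tick, the median of all genes as a dashed line and the member median as an orange line. The member median is 0.00 against 0.85 in the left panel, 0.97 against 1.54 in the middle and 1.14 against 0.69 on the right.

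Against the buffer-only control, which shows C-to-U changes without any deaminase, 13 of 28 tested proteasome genes were called higher with RBFOX2-INSCRIBE and 0 lower (limma), beside 61.1% of all 4804 genes higher and 0.0624% lower. When the libraries were scaled to the same total of edited Cs, 0 of 30 members were higher and 1 lower (PSMC3), with 25 of all genes higher and 34 lower. PSMC3 met the minimum mean of 5 edited Cs only after scaling and through its buffer-only libraries, so this call gives no support. The member median after scaling was -0.52 and that of all genes 0.01, and 8 of the 30 members were above 0. The same 13 had an unadjusted p under 0.05, as did 66.6% of all genes. All 28 had a log2 difference above 0, as did 94.9% of all genes, with a median of 0.97 against 1.54. Both RBFOX2-INSCRIBE libraries were above both buffer-only libraries in 21 members, where 80.6% of all genes showed this order, and below both in 0 (0.958% of all genes). PSMD10 rose by 2.28 (SE 0.34, adjusted p = 0.00155), PSMA1 by 1.98 (SE 0.42, adjusted p = 0.00622), PSMD14 by 1.95 (SE 0.31, adjusted p = 0.00202) and PSMD12 by 1.85 (SE 0.22, adjusted p = 0.000787). PSMA2 and PSMA4 of the alpha ring rose by 1.55 and 1.53, PSMG1 by 1.16, PSME4 by 1.11, PSMD7 by 1.08 and PSME3 by 0.97. PSMD2, PSMD6 and PSMD11 rose by 0.96, 0.85 and 0.72. By role, the calls were 3 of 7 tested alpha ring genes, 5 of 7 lid genes, 2 of 2 activators, both tested chaperones and 1 of the scaffold and receptor pair, while no tested beta ring gene and no ATPase passed. Each library was also left out, which leaves 1 library in its group. Without RBFOX2-INSCRIBE replicate 1 the median was 0.89 for the members and 1.59 for all genes. Without RBFOX2-INSCRIBE replicate 2 the medians were 1.06 and 1.53. Without buffer-only replicate 1 they were 1.00 and 1.51, and without buffer-only replicate 2 they were 0.98 and 1.51.

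The comparison of the 2 controls gave the editing by untargeted enzyme. Of 31 members, 0 passed (0.546% of 4209 genes did, all higher), and 15 had an unadjusted p under 0.05, against 15.1% of all genes. A log2 difference above 0 was found in 28 of 31 members and in 84.9% of all genes. The member median was 1.14 and that of all genes 0.69. This order turned without enzyme-only replicate 2, when the medians were 0.75 and 1.14. In that fit 24 of 29 members and 92.7% of all genes were above 0. Without replicate 3 the medians were 1.17 and 0.31. Both enzyme-only libraries were above both buffer-only libraries in 18 members (44.4% of all genes showed this order) and below both in 0 (1.31% of all genes). PSMC6 (2.71, adjusted p = 0.0613) and PSMA1 (2.10, adjusted p = 0.0582) had the lowest p. PSMC6 had 2 and 21 edited Cs in the 2 enzyme-only libraries, 11 and 2 with RBFOX2-INSCRIBE and 2 and 0 with buffer, so its replicates disagreed. The comparisons share libraries and are not independent of each other.

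Length of the mRNA moved with these differences. The member isoforms had a median length of 1589.5 nt, against 3243 nt over all isoforms. Over all isoforms, the ratio of RBFOX2-INSCRIBE to enzyme-only replicate 2 ran from 0.378 for isoforms under 1000 nt to 2.89 for those of 5000 nt and over, and the ratio to replicate 3 from 0.952 to 1.38. Among member isoforms the same ratios were 0.311 and 0.863 under 1000 nt and 1.69 and 1.23 at 5000 nt and over. Within length classes of the longest listed isoform, 11 members under 1500 nt had a median log2 difference of -0.51 against -0.40 for 272 other genes (RBFOX2-INSCRIBE against enzyme-only). From 1500 to under 3000 nt, 10 members had 0.24 and 1471 other genes 0.66. At 3000 nt and over, 10 members had 0.10 and 3314 other genes 0.99. Members of the longer classes thus had lower medians than other genes of like length. Without enzyme-only replicate 2 the 3 pairs of medians, from the shortest class to the longest, were 0.17 and -0.03, 0.09 and 0.25, and 0.17 and 0.42. Members of the shortest class then lay above the other genes. The part of length in the result was not tested beyond these classes, which were chosen after the data were seen.

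**Figure D4:**
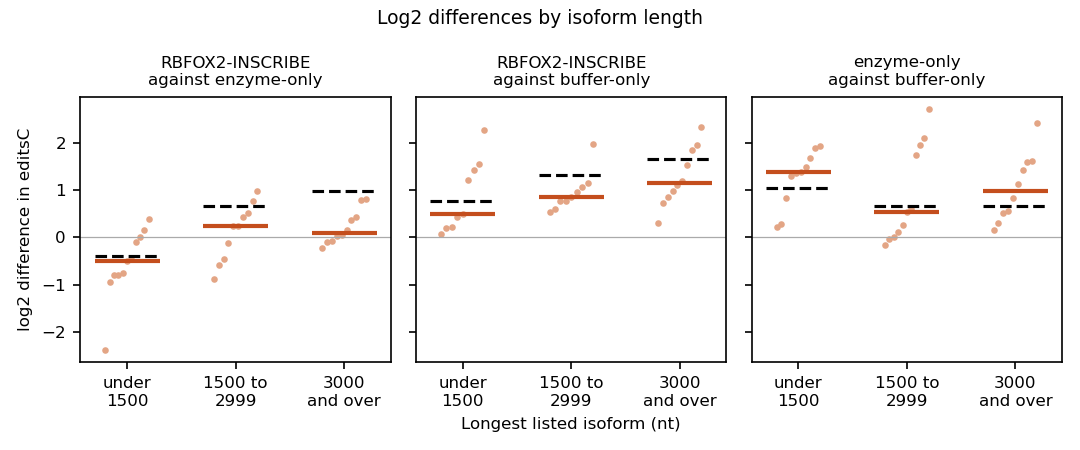
Log2 difference in editsC of each tested proteasome gene (points) in 3 classes of the length of its longest listed isoform, for the 3 comparisons, with the member median (orange bar) and the median of the other genes of that class (dashed bar). In the left panel the bars lie at -0.51 and -0.40 under 1500 nt and at 0.10 and 0.99 at 3000 nt and over.

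Other genes of the pathway were counted from a list of 20 (subunits without the prefix, receptors, shuttle factors, partners and regulators), of which 16 could be tested. With RBFOX2-INSCRIBE against enzyme-only, 0 of 16 passed (0.118% of all genes did), 14 had a difference above 0 (85.5% of all), and the median was 0.99 (0.85 over all). Without enzyme-only replicate 2, 14 of 16 were above 0 (71.5% of all) and the median was 0.68 (0.35 over all). Against buffer 11 of 16 were higher (61.1% of all), with a median of 1.64 (1.54 over all). Between the controls 0 of 16 passed (0.546% of all), with a median of 0.64 (0.69 over all), and without enzyme-only replicate 2 the median of 14 genes was 0.92 (1.14 over all). The longest isoforms of the listed 19 had a median length of 4114 nt. USP14, a deubiquitinase that docks on the base, had 114 and 87 edited Cs with RBFOX2-INSCRIBE, 25 and 87 with enzyme alone and 21 and 31 with buffer. UCHL5, the other docking deubiquitinase, had 70 and 103, 21 and 52, and 13 and 22.

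UGCAUG occurred 38 times in 23 member isoforms of 18 genes, at 32 positions of the genome, with 26 copies in 3′ UTRs, 9 in coding sequence and the others in non-coding isoforms. The share of edited Cs that lay within 50 nt of the motif was compared with the share of all Cs of the same isoforms. In the members it was 3.23% (30 of 929 pairs of isoform and edited C) and 2.28% with RBFOX2-INSCRIBE, 2.08% and 4.12% in enzyme-only replicates 2 and 3, and 2.76% and 3.48% with buffer, and 3.22% of all Cs were so placed. The exact (Clopper-Pearson) 95% intervals of the RBFOX2-INSCRIBE shares were 2.19 to 4.58% and 1.33 to 3.62%, and both hold the share of all Cs. These intervals cover counting error only. Over all isoforms the shares were 4.74% and 4.80% with RBFOX2-INSCRIBE, 2.64% and 2.79% with enzyme alone and 2.64% and 2.51% with buffer, and 2.61% of all Cs were so placed. Both member intervals end below the shares of all isoforms with the antibody.

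Of 20 copies, no edited C lay within 50 nt in any library, and 9 of the 38 copies lay past the last edited C of their isoform. At no copy did both antibody libraries hold more nearby edited Cs than both libraries of enzyme alone. Of 6 copies with an edited C nearby in both RBFOX2-INSCRIBE libraries, 3 were in 3′ UTRs, of PSMD4 and PSME3, and are shown as DNA letters of the mRNA strand from the GENCODE transcripts (hg38), with the motif in capitals.
PSMD4, ENST00000368884, chr1:151267370-151267399, plus strand: tgcttaggggacTGCATGggaagcacggaa
PSME3 first copy, ENST00000590720, chr17:42842205-42842234, plus strand: cacatatgtgtaTGCATGtatacgcccata
PSME3 second copy, ENST00000590720, chr17:42842653-42842682, plus strand: tgtatgtgtatgTGCATGcacacacgtgca
Around the PSMD4 copy, 6 and 2 edited Cs were found with RBFOX2-INSCRIBE, 2 and 1 with enzyme alone and 0 and 2 with buffer. Around the first PSME3 copy the numbers were 3 and 4, 5 and 8, and 2 and 2, and around the second 2 and 4, 1 and 3, and 4 and 1. The ranges of RBFOX2-INSCRIBE and the controls met or overlapped at all 3 copies. The same stretch of the other listed PSMD4 isoform (ENST00000368881) held no edited C in any library. That isoform had 3 edited Cs in all, in enzyme-only replicate 2.

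Edited Cs within 50 nt of a copy that were found in both RBFOX2-INSCRIBE libraries numbered 5, of which 3 were in none of the 4 control libraries. They are shown with the edited C in capitals, to set the edited base beside the copies above.
PSMD4 site at chr1:151267395, window chr1:151267385-151267405, plus strand: atgggaagcaCggaatatagg
PSME3 site at chr17:42842174, window chr17:42842164-42842184, plus strand: gaagctccttCagttgttttt
PSME3 site at chr17:42842645, window chr17:42842635-42842655, plus strand: ggaaagcaatCattggtgtgt
The PSMD4 site lay 8 nt from the motif and was edited in 0.309% and 0.529% of the reads of its isoform in RBFOX2-INSCRIBE replicates 1 and 2. The PSME3 sites lay 43 nt and 20 nt from a copy and were edited in 0.119% and 0.122%, and in 0.238% and 0.489%. Fractions of PSME3 in RBFOX2-INSCRIBE replicate 1 came in steps, such as 0.119%, 0.238% and 0.356%, as small whole numbers of edited reads would give. The numbers of reads behind the fractions were not worked out.

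**Figure D5:**
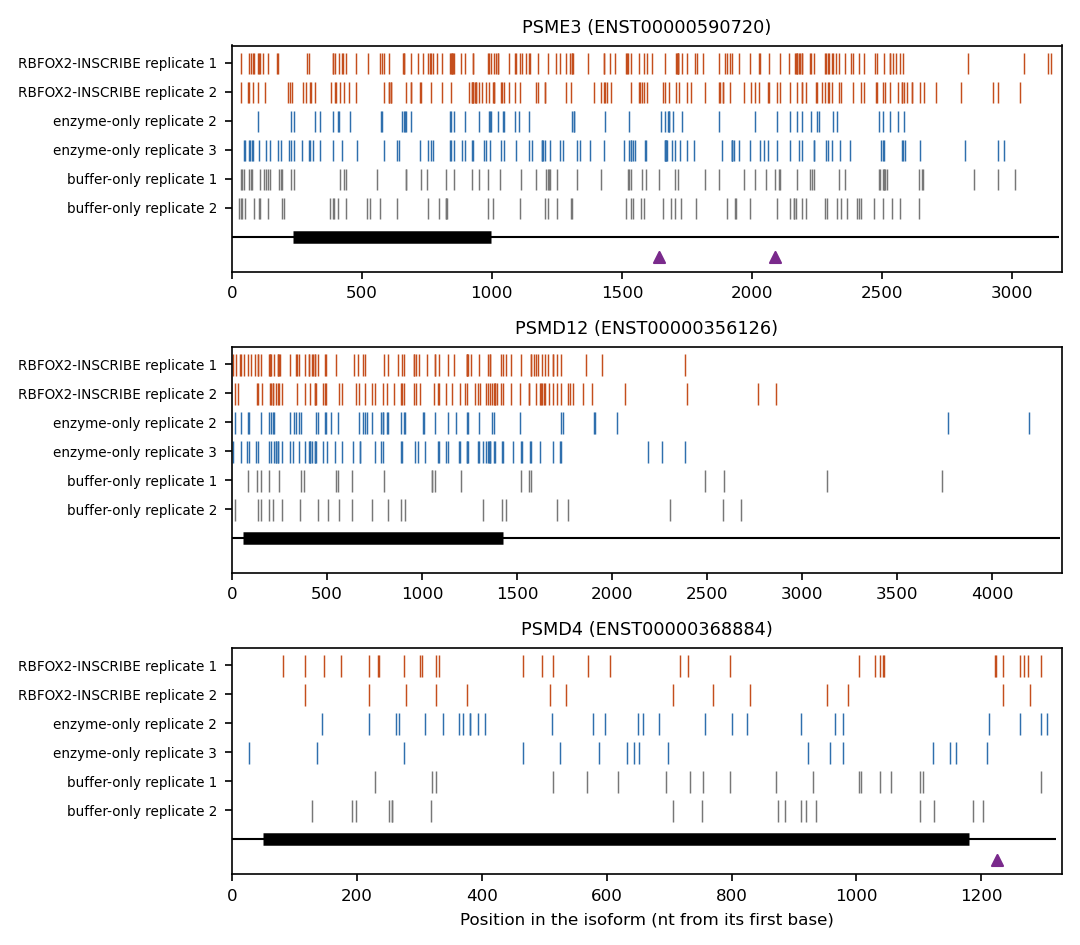
Edited Cs along the most edited isoform of PSME3, PSMD12 and PSMD4 (x axis: nt from the first base of the isoform), 1 row of ticks per library, with the coding sequence as a thick bar and UGCAUG copies as triangles. PSME3 is edited along its whole length, PSMD12 has no copy and only 16 of its 334 pairs of library and edited C lie past the midpoint, and the PSMD4 copy lies in its short 3′ UTR.

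Edits did not cover the annotated ends of several long members. PSMA4 (4378 nt), PSMC1 (4390 nt) and PSMB2 (4426 nt) had no edited C past the midpoint of the isoform in any library, although 56.5%, 53.0% and 49.4% of their Cs lie there. In PSMD12 4.79% and in PSMD11 10.9% of edited Cs lay past the midpoint, and in PSME3 42.0%. All 3 UGCAUG copies of PSMA4 and the 3′ UTR copy of PSMC1 lie past the last edited C, so nothing can be read of them. EditsC of such genes is lowered alike in all groups by these Cs. How far the reads reached was not tested.

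Most edited Cs of the members lay in coding sequence. In the members 32.5% and 33.9% of edited Cs lay in 3′ UTRs with RBFOX2-INSCRIBE, 24.3% and 29.0% with enzyme alone and 27.9% and 26.4% with buffer, and 40.5% of all member Cs are there. Over all isoforms the shares were 59.1% and 60.0%, 49.4% and 53.5%, and 43.5% and 43.1%, with 43.1% of all Cs. Coding sequence held 60.8% and 58.7% of member edits with RBFOX2-INSCRIBE, 69.8% and 64.8% with enzyme alone, and 64.1% and 66.9% with buffer, and 43.0% of member Cs. In PSME3 between 58.6% and 64.6% of the edited Cs lay in the 3′ UTR in every library. PSMD10 had 70.4% and 66.7% there with RBFOX2-INSCRIBE, 72.0% and 61.8% with enzyme alone, and 42.9% and 50% with buffer.

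The base before the edited C separated the libraries with enzyme from those without. APOBEC1 prefers an A or U before its target. An A or U preceded 68.6% and 69.4% of the edited Cs of the members with RBFOX2-INSCRIBE, 62.1% and 67.0% with enzyme alone and 41.0% and 43.3% with buffer, against 48.7% of all their Cs. The 95% exact intervals of the members reached from 58.6% to 72.7% in the 4 libraries with enzyme. They reached from 36.1% to 48.3% in the 2 without, and did not meet the others. These intervals treat each edited C as independent and leave out the spread between libraries. Over all isoforms the shares were 73.7% and 75.0% with RBFOX2-INSCRIBE and 62.0% and 69.3% with enzyme alone. With buffer they were 42.0% and 42.6%, against 48.4% of all Cs, so the separation was not particular to the members. In the buffer-only libraries a G came before 35.7% and 35.3% of the edited Cs, against 24.6% of all Cs and 19.8% to 24.9% in the libraries with enzyme. G-to-A changes, taken on the gene strand, were few: 19 and 11 with RBFOX2-INSCRIBE, 20 and 25 with enzyme alone and 29 and 25 with buffer.

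Within the coding sequence, edits would turn a glutamine or arginine codon into a stop codon at 171 distinct sites. Such codons held between 7.79% and 10.04% of the coding edits of a library, and 7.59% of all coding Cs of the members. Of these sites 11 were found in 3 or more libraries. A site of PSMD3, found in 4 libraries, is shown as an example of those found most often, with the edited C in capitals.
PSMD3 site at chr17:39988710, window chr17:39988700-39988720, plus strand: tgatctgatgCagaagatcag
The PSMD3 site was edited in 0.328% of reads in RBFOX2-INSCRIBE replicate 2, 0.299% in enzyme-only replicate 3, and 0.337% and 0.413% in the buffer-only libraries. It was thus found with and without enzyme.

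Most member sites were found in a single library, as over all genes. Of 3100 distinct sites, 2400 were found in 1 library (77.4%, and 77.0% over all genes), 531 in 2 (17.1% and 16.4%), 153 in 3 (4.94% and 5.39%), 14 in 4, 2 in 5 and 0 in all 6, where the authors had removed shared positions. The RBFOX2-INSCRIBE libraries shared 156 sites, which were 16.8% of the sites of replicate 1 and 21.0% of those of replicate 2, against 25.1% and 24.5% over all genes. Sites in both RBFOX2-INSCRIBE libraries and in no control numbered 80 (2.58% of the member sites, and 4.33% over all genes), and sites in both enzyme-only libraries and no other numbered 41 (1.32%, and 0.762% over all genes). The 80 sites lay in 17 genes, with 44 in coding sequence and 35 in 3′ UTRs. PSME3 had 20, PSMD12 14, PSMD11 9, PSMD14 8, and PSMA1 and PSMD10 6 each. Sites in both enzyme-only libraries alone numbered 3 in PSME3, 3 in PSMD12, 4 in PSMD11, 5 in PSMD14, 4 in PSMA1 and 0 in PSMD10. Sites were joined over the isoforms of a gene, and 72 of the 80 were listed on the same isoform in both libraries. The median edit fraction of these 72 was 0.264%, with a range from 0.115% to 3.72%, and 4 had a mean of at least 1%.

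The highest mean fractions among the 72 were at a site of a retained-intron isoform of PSMA4, then at a 3′ UTR site of the 2042 nt isoform of PSMF1 and a coding site of PSMB2. These are shown with the edited C in capitals.
PSMA4 site at chr15:78540999, window chr15:78540989-78541009, plus strand: gccatccttaCtttgcaccat
PSMF1 site at chr20:1167054, window chr20:1167044-1167064, plus strand: aattgtgattCaccttcagaa
PSMB2 site at chr1:35609278, window chr1:35609268-35609288, minus strand: gccttcctgaCtctcagtatc
The PSMA4 site was edited in 2.44% and 5% of the reads of its isoform in RBFOX2-INSCRIBE replicates 1 and 2, the PSMF1 site in 2.17% and 2.27%, and the PSMB2 site in 1.099% and 1.52%. None of these isoforms holds UGCAUG. A single edited read of a sparsely read isoform would give fractions of this size. A ranking by fraction can thus favour isoforms that were read few times.

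Long reads let isoforms be told apart. At the isoform level 0 of 32 tested member isoforms passed against enzyme-only (0.0525% of 5717 did) and 1 had an unadjusted p under 0.05 (16.2% of all did), with 16 above 0 (85.5% of all). Without enzyme-only replicate 2, 20 of 31 were above 0 (70.8% of all). Against buffer 14 of 31 were higher and 0 lower (60% of 5362 were higher and 0.0746% lower, 60.1% in all), 15 had an unadjusted p under 0.05 (65.4% of all) and 31 were above 0 (95% of all). Between the controls 0 of 31 passed (0.811% of 4438 were higher and 0.0225% lower, 0.834% in all), 14 had an unadjusted p under 0.05 (15.2% of all) and 27 were above 0 (85.1% of all). PSMF1 alone had 2 isoforms that could be compared. Its 8154 nt isoform (ENST00000335877) had 20 and 9 edited Cs with RBFOX2-INSCRIBE, 14 and 15 with enzyme alone and 9 and 7 with buffer, and its 2042 nt isoform (ENST00000246015) had 12 and 5, 8 and 6, and 1 and 2. The antibody effect differed between the isoforms by -0.26 on the log2 scale (SE 0.59, limma adjusted p = 0.915). Of all 581 genes so tested 0 passed, and 28 had an unadjusted p under 0.05. The retained-intron isoforms of PSMA4, PSMD14 and PSMD6 were too sparse for the test against enzyme-only. PSMA4 ENST00000559934 had 9 and 7 edited Cs with RBFOX2-INSCRIBE, 1 and 0 with enzyme alone and 2 and 2 with buffer. PSMD14 ENST00000477232 had 4 and 7, 0 and 0, and 0 and 1. The PSMA4 isoform was 1 of the 14 called above buffer (limma log2 difference 1.76). It met the minimum mean of 5 edited Cs only through its RBFOX2-INSCRIBE libraries, so this call gives no support. PSMD6 ENST00000476464 had 0 and 6, 0 and 2, and 4 and 1. In those of PSMA4 and PSMD14 the RBFOX2-INSCRIBE libraries were above all controls. The share of all isoforms in this order was not worked out. Of all genes tested, 51.8% were above both enzyme-only libraries and 80.6% above both buffer-only libraries. Together the 3 held 1.40% and 2.68% of member edits with RBFOX2-INSCRIBE, 0.130% and 0.266% with enzyme alone and 1.51% and 0.995% with buffer, whereas the retained-intron isoforms of all genes held between 1.92% and 2.08% in every library.

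The study filtered isoforms by read coverage and edit fraction and selected targets with a linear model of mean editsC in RBFOX2-INSCRIBE on that in enzyme-only. An adaptation was run here: only edited Cs with a fraction of at least 0.02 were counted, in the 3238 isoforms with such a C in all 4 libraries, and no coverage filter was set. A residual over 1.5 SD selected 6.58% of all isoforms and 0 of the 7 member isoforms among them. Their residuals ran from -0.67 SD for PSMD12 to 0.71 SD for PSMA5. PSMA5 (1.93 SD) was selected without RBFOX2-INSCRIBE replicate 1, and PSMC6 without RBFOX2-INSCRIBE replicate 2 (2.41 SD) or without enzyme-only replicate 3 (2.39 SD). PSMA5 had 3 and 15 such edited Cs with RBFOX2-INSCRIBE and 3 and 6 with enzyme alone.

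Edit fractions were low in the members. The median was 0.353% and 0.411% with RBFOX2-INSCRIBE, 0.304% and 0.357% with enzyme alone, and 0.337% and 0.372% with buffer. Over all genes the median ran from 0.518% to 0.763%, above every member median. A fraction of at least 0.02 was reached by between 5.74% and 10.3% of the edited Cs of the members and by between 17.5% and 23.3% of all edited Cs. The number of reads per mRNA was not worked out here, and its part in the fractions was not tested.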

How the data were processed

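Full-length cDNA of 6 libraries was sequenced on PacBio Revio after concatenation. The authors made consensus reads, aligned them to hg38 with pbmm2, kept primary alignments on the correct strand, assigned them to isoforms with IsoQuant (unique assignments), ran their own C-to-U caller, and dropped dbSNP positions and edits that every library shared. They deposited 1 fraction per isoform and edited position, the edited share of the reads of that isoform, and the files used here hold no read numbers. The annotation used for the long reads is not given in the sources used here, and GENCODE release 44 was used, which held between 99.7% and 99.8% of the listed pairs.

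Edited Cs were distinct positions on the strand of the isoform and inside its exons. All were C in the transcript. Genes and isoforms averaging 5 or more edited Cs over the 4 libraries compared were tested with limma 3.58.1 (R 4.3.3, trend and robust empirical Bayes, no covariates) on log2((edited Cs + 0.5) / Cs), with Benjamini-Hochberg adjustment over all features tested. The test was checked on simulated data. The simulation covered RBFOX2-INSCRIBE against buffer-only without the differences in library totals seen here, so it does not cover the comparison with enzyme-only. Shares and intervals were computed with Python 3.11.15, pandas 2.3.3 and scipy 1.17.1. A p-value here measures the spread between 2 libraries a group. The methods describe INSCRIBE replicates on separate slides, and figure captions of the study call replicates technical. How the replicates of the PacBio libraries were made is not said. The replicate number differs between the titles and another label for the enzyme-only libraries. Titles give the names here, and the other label gives the numbers of the replicate block.

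The members and lists were chosen with earlier results of these data known. Named were the 12 members with the most edited Cs; members past the test, at most 10 a comparison by size; the 6 highest and 4 lowest differences against enzyme-only; genes with a site in both RBFOX2-INSCRIBE libraries and no control, at most 10 by fraction; genes with a site within 50 nt of UGCAUG in both RBFOX2-INSCRIBE libraries; genes with 2 tested isoforms; and PSMC3IP. Others are named for counts or as said. Alternatives covered the pseudocount, the minimum, scaling, the positions counted, a minimum fraction, the fit on all 3 groups, the replicate block, the motif window and leaving out each library. Not every edited site is reported here.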

Additional observations from a re-analysis of the deposited data

How the results depend on the processing

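With 2 libraries a group, counts of calls were unstable, and differences of library totals entered them. RBFOX2-INSCRIBE against enzyme-only called 6 genes and 3 isoforms. It called 0 and 0 with a pseudocount of 0.1, 0 and 0 at a minimum mean of 1, 0 and 0 after scaling library totals to be equal, and 0 and 0 with fractions of at least 0.02. It called 30 and 59 with a pseudocount of 1, 28 and 66 with the replicate block, 1 gene with all listed positions, 1 gene in the fit on all 3 groups, and 5 isoforms with a mean of at least 20. Without 1 library the counts ran from 0 to 1690 genes and from 0 to 1856 isoforms. No member was called under any of the alternatives that kept all 4 libraries. Without 1 library the counts ran from 0 to 3 member genes and from 0 to 3 member isoforms, the 3 being found without enzyme-only replicate 3. The member median, 0.00, was -0.79 after scaling and 0.67 with fractions of at least 0.02, where 4 members remained, and ran from -0.22 to 0.28 without 1 library.

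RBFOX2-INSCRIBE against buffer-only called 2936 genes and 3221 isoforms. The counts were 1866 and 1834 with a mean of at least 20, 59 and 107 after scaling, and 641 and 598 with fractions of at least 0.02. Without 1 library they ran from 0 to 2318 genes and from 324 to 2433 isoforms. Scaling changed the split from 2933 higher and 3 lower to 25 higher and 34 lower genes. The 13 member genes and 14 member isoforms became 1 and 1 after scaling (PSMC3, lower), 0 and 0 with fractions of at least 0.02, 6 and 7 in the fit on all 3 groups, and 9 isoforms with a mean of at least 20. Without 1 library they ran from 0 to 7 genes and from 2 to 8 isoforms. The member median, 0.97, was -0.52 after scaling and 1.95 with fractions of at least 0.02 (4 members). After scaling, single genes turned as well: PSMG1 to -0.21, PSME4 to -0.35, PSMD7 to -0.30, PSME3 and PSMD2 to -0.51, PSMD6 to -0.61 and PSMD11 to -0.76, and PSMD7 was -0.035 with all listed positions. Against enzyme-only, scaling turned PSME4 to -0.0064, PSMC4 to -0.0086, PSMD3 to -0.30 and PSMD13 to -0.36. Without 1 library PSMD13 ran from -0.16 to 1.03, below 0 without RBFOX2-INSCRIBE replicate 1 or enzyme-only replicate 3 (-0.12), and PSMB1 ran from -1.63 to 0.019, above 0 without enzyme-only replicate 2.

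Enzyme-only against buffer-only called 23 genes and 37 isoforms. The counts were 35 genes with a pseudocount of 0.1, 24 isoforms with a pseudocount of 1, 8 and 6 with a mean of at least 1, 0 and 0 with a mean of at least 20, 0 and 0 after scaling, 0 and 0 with fractions of at least 0.02, 64 and 82 in the fit on all 3 groups, and 8 and 12 with the replicate block. Without 1 library they ran from 0 to 1 gene and from 0 to 3 isoforms. Members were called with a pseudocount of 0.1 (2 genes, PSMA1 and PSMC6, and 1 isoform) and in the fit on all 3 groups (2 genes, PSMA1 and PSMD10, and 2 isoforms). The member median, 1.14, was 0.49 after scaling and 2.08 with fractions of at least 0.02 (2 members).

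The share near UGCAUG with RBFOX2-INSCRIBE, a mean of 2.75%, was 1.81% within 25 nt, 5.91% within 100 nt and 7.19% for GCAUG. The enzyme-only mean of 3.10% was 6.52% within 100 nt, 7.16% for GCAUG and 5.74% for fractions of at least 0.02. The linear model selected 0 to 1 member isoforms without 1 library, and isoform-dependent editing 0 genes under every alternative. The cause of these changes was not tested.

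Libraries numbered alike in the label other than the title share only a number: the correlation of their replicate differences over 4801 genes was 0.11, 0.05 and -0.02 in the 3 comparisons. The replicate block changed no other count of calls by over 1.5 times. The files used here hold no read numbers, and depth and the precision of a fraction were not worked out from the fractions. Genes with few edited Cs were not tested.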
